A study of Homo sapiens with 42 samples.

Results

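The genes described here encode AP-1 subunits and closely related basic leucine zipper transcription factors: JUN, JUNB, JUND, FOS, FOSB, FOSL1, FOSL2, ATF3, BATF3 and MAFF. They were taken by gene symbol, and each of the 10 had 1 row in the deposited array table, out of 18404 genes tested. Messenger RNA was measured on 42 arrays. They came from H460, derived from a large-cell lung carcinoma and called radiosensitive in the series, and from H1299, derived from a non-small cell lung carcinoma and called radioresistant. Both grew exponentially in the same serum-containing medium and received 2 Gy of γ-radiation. Per line, 3 arrays each were hybridised for 2, 4, 8, 12 and 24 h after the dose and 6 for unirradiated cells (0 h), which makes 12 groups. The titles name biological replicates without saying whether these were separate cultures, so the p-values measure the spread between these arrays. The protocol mentions control cells that were incubated as well, but every array after 0 h carries a label of irradiation. An effect of radiation and an effect of hours in culture therefore cannot be told apart in any change over time.

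AP-1 factors bind DNA as pairs joined through their leucine zippers. JUN proteins pair with each other or with FOS proteins, FOS proteins need a partner, and ATF3 and BATF3 join JUN or related partners on similar DNA elements. The small MAF protein MAFF binds DNA as a pair too. Many of these genes are immediate-early genes, which growth factors and stress kinases such as JNK switch on within minutes and whose transcripts are short-lived. In lung epithelium and lung cancer AP-1 is known for its part in proliferation, invasion and stress responses, and JUN, the target that gave JNK its name, is known to act on its own promoter.

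Levels are log2 intensities as deposited. Changes are on the log2 scale, relative to the line's own 0 h mean, and ± gives limma's standard error. A gene is said to rise or fall where limma's test gave a Benjamini-Hochberg adjusted p under 0.05 over all 18404 genes. Levels of different genes come from different probes and are not set against each other. The spread of values within an array differed between groups. Its interquartile range averaged 2.84 at 2 h in H460, against 3.34 at 0 h and 3.64 to 3.67 at 8 to 24 h, and in H1299 it ran from 3.53 at 2 h to 3.82 at 12 h. Values with this range (array width) as a covariate are given where they end a call. CDKN1A, which encodes the cell cycle inhibitor p21, changed by 1.62 ± 0.128 at 4 h in H460 (adjusted p = 1.06e-08) and by 0.20 ± 0.0709 in H1299 (adjusted p = 0.0506). At 0 h the epithelial keratins KRT8 and KRT18 stood at percentiles 98.3 to 99.8 of all genes in both lines, and KRT19 at 99.2 in H460 and 38.0 in H1299, while EPCAM and CDH1 lay at 16.1 to 18.6. Of the mesenchymal markers, VIM stood at 99.0 in H460 and 99.7 in H1299, and FN1 at 99.8 and 66.2. CDH2 stood at 36.3 and 88.5, and ZEB1 at 42.1 and 60.2. Of the fibroblast markers, COL1A1 stood at 59.7 in H460 and 51.8 in H1299, COL1A2, COL3A1 and PDGFRB at 31.0 to 50.5, and DCN at 4.41 in H460 and 5.29 in H1299, with LUM below COL1A2 in both lines. Of the leukocyte markers, CD68 stood at 88.0 in H460 and 88.8 in H1299, CD14 at 47.8 and 31.5, and PTPRC, CD3E and LYZ at 1.396 to 17.0. The part of other cell types in the results was not tested.

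The first question was which members changed after 2 Gy in each line, and when. In H460, JUN was low from 2 h on, FOSL1, FOSB and ATF3 were low from 8 h on, and JUNB was high from 8 h on. The arrays measure RNA of whole cultures, in which fewer cells expressing a gene and less RNA per cell cannot be told apart. At 2 h 1 member rose and 2 fell (3 of 10 called, against 40.4% of all genes). At 4 h 0 rose and 2 fell (2 of 10, against 2.92%), and at 8 h 1 rose and 4 fell (5 of 10, against 16.9%). At 12 h 1 rose and 7 fell (8 of 10, against 33.5%), and at 24 h 2 rose and 5 fell (7 of 10, against 28.7%). The median change of the 10 genes was -0.05, -0.26, -0.34, -0.44 and -0.35 at these times, while the median of all genes stayed between -0.05 and -0.01. Over the 5 times, 25 of 50 gene and time pairs were called in H460, against 24.5% for all genes. With array width as a covariate 10 of the 50 pairs were called. With the 3 narrow arrays at 2 h left out, a setting chosen after seeing the data, 22 of the 40 remaining pairs were called. The share of all genes called was not computed for either setting, so these counts cannot be set against 24.5%.

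In H1299, ATF3 and FOSB fell, JUND fell from 2 to 12 h, JUNB and FOSL2 rose, and JUN fell most at 2 h. At 2 h 1 member rose and 3 fell (4 of 10 called, against 13.8% of all genes), and at 4 h 2 rose and 4 fell (6 of 10, against 15.9%). At 8 h and at 12 h 2 rose and 5 fell (7 of 10 each, against 24.6% and 29.7%), and at 24 h 1 rose and 2 fell (3 of 10, against 11.7%). The median change of the 10 genes was -0.14, -0.27, -0.25, -0.16 and -0.04 from 2 to 24 h, against medians of all genes between -0.06 and 0.00. Over the 5 times 27 of 50 pairs were called, against 19.1% for all genes. No member was called in opposite directions in the lines at the same time (0 at each of the 5 times). At 12 h, JUND, FOSB, ATF3, BATF3 and MAFF fell and JUNB rose in both lines, JUN and FOSL1 were called in H460 alone, and FOSL2 in H1299 alone. Calls shared by the lines were not counted over all genes, so whether these genes differ from others in this was not tested.

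**Figure D1:**
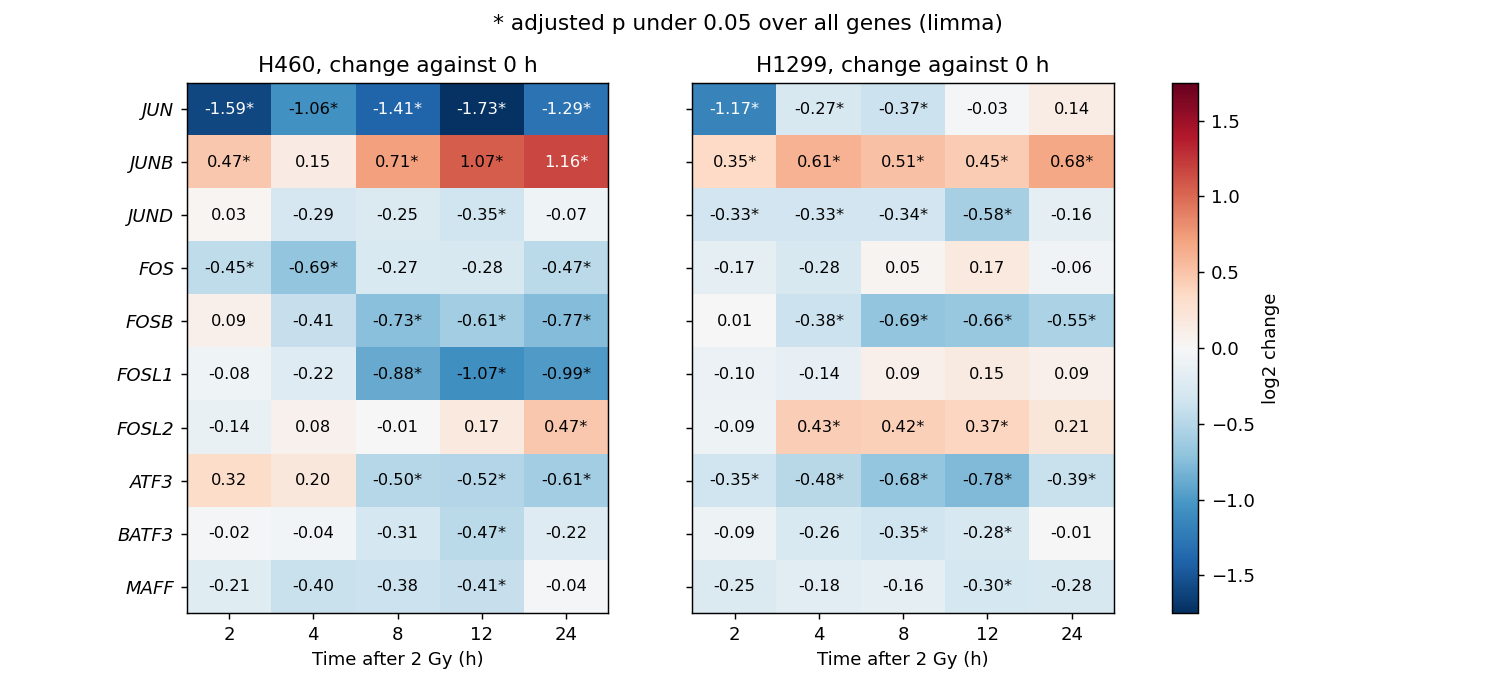
Log2 change of each gene against 0 h of its own line at 2, 4, 8, 12 and 24 h, for H460 on the left and H1299 on the right, with an asterisk where limma's adjusted p over all genes was under 0.05. The JUN row runs from -1.06 to -1.73 in H460 and is near 0 at 12 h in H1299 (-0.03), and the JUNB row is positive at every time in both lines.

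The quadratic time course that the series design names was called for 9 of the 10 genes in H460 (41.9% of all genes) and for 6 in H1299 (36.5% of all genes). FOS was the gene not called in H460 (adjusted p = 0.26). In H1299 FOS, FOSL1, JUN and MAFF were not called, with adjusted p of 0.541, 0.242, 0.138 and 0.0733. With array width as a covariate the H460 calls of ATF3, BATF3 and JUND were lost (adjusted p = 0.111, 0.182 and 0.127). The H1299 call of BATF3 was lost in that setting too (adjusted p = 0.0568). A quadratic curve cannot follow a dip at a single early time, and with 1 mean per time point the adjusted p was 1.74e-09 for JUN and 0.0248 for FOS in H1299 and 0.000543 for FOS in H460. The H460 call of JUND (adjusted p = 0.0316) was lost without any of 6 arrays (0 h replicates 1 and 5, 8 h replicate 1 and each 12 h array, adjusted p 0.0508 to 0.062), and that of MAFF (adjusted p = 0.028) without 8 h replicate 2 or 12 h replicate 3 (0.0667 and 0.071). MAFF also lost it with 1 mean per time point (adjusted p = 0.0587) and after quantile normalization (adjusted p = 0.179). With the replicate number as a block both were lost (adjusted p = 0.0815 for JUND and 0.0691 for MAFF). With 0 h replicates 4 to 6 alone both were lost too (adjusted p = 0.0524 and 0.0918).

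Among the JUN proteins, JUN itself, the strongest activator among them, was lower at every time in H460. The 6 arrays at 0 h ran from 7.46 to 7.67 with a median of 7.59. The 3 arrays read 6.10, 5.78 and 6.06 at 2 h, 6.38, 6.74 and 6.42 at 4 h, and 5.88, 6.36 and 6.24 at 8 h. The arrays at 12 h read 5.93, 6.10 and 5.47, and those at 24 h 6.41, 6.12 and 6.30. All 15 arrays after irradiation lay below all 6 arrays at 0 h, with a small upturn of the means at 4 h and the lowest mean at 12 h. JUN fell by 1.59 at 2 h (3.01-fold lower, adjusted p = 1.17e-07), by 1.06 at 4 h (2.08-fold lower, adjusted p = 3.5e-05) and by 1.41 at 8 h (2.65-fold lower, adjusted p = 2.28e-07), each ± 0.133. It fell by 1.73 at 12 h (3.33-fold lower, adjusted p = 1.9e-09) and by 1.29 at 24 h (2.45-fold lower, adjusted p = 9.54e-08). The calls at 4, 8, 12 and 24 h stood in every setting run, while at 2 h, where the arrays were narrowest, the change with array width as a covariate was -1.36 (adjusted p = 0.101).

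In H1299, JUN fell at 2 h and was back within the 0 h range by 12 h. The 0 h arrays ran from 8.05 to 8.41 with a median of 8.19, and the 2 h arrays read 7.19, 6.98 and 6.99. The arrays read 8.04, 7.85 and 7.95 at 4 h and 7.91, 7.72 and 7.92 at 8 h, just below the 0 h arrays. At 12 h they read 8.09, 8.32 and 8.16, and at 24 h 8.31, 8.39 and 8.38, both overlapping 0 h. The change was -1.17 ± 0.0811 at 2 h (2.25-fold lower, adjusted p = 2.88e-09), -0.27 at 4 h (adjusted p = 0.0207) and -0.37 at 8 h (adjusted p = 0.00146). It was -0.03 at 12 h (95% interval -0.20 to 0.14, adjusted p = 0.793) and 0.14 at 24 h (95% interval -0.03 to 0.30, adjusted p = 0.346). The 4 h call was lost without 4 h replicate 2 (-0.23, adjusted p = 0.135) or 4 h replicate 3 (-0.28, adjusted p = 0.07). It was also lost with the replicate number as a block (adjusted p = 0.128) and with 0 h replicates 1 to 3 alone (adjusted p = 0.114).

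**Figure D2:**
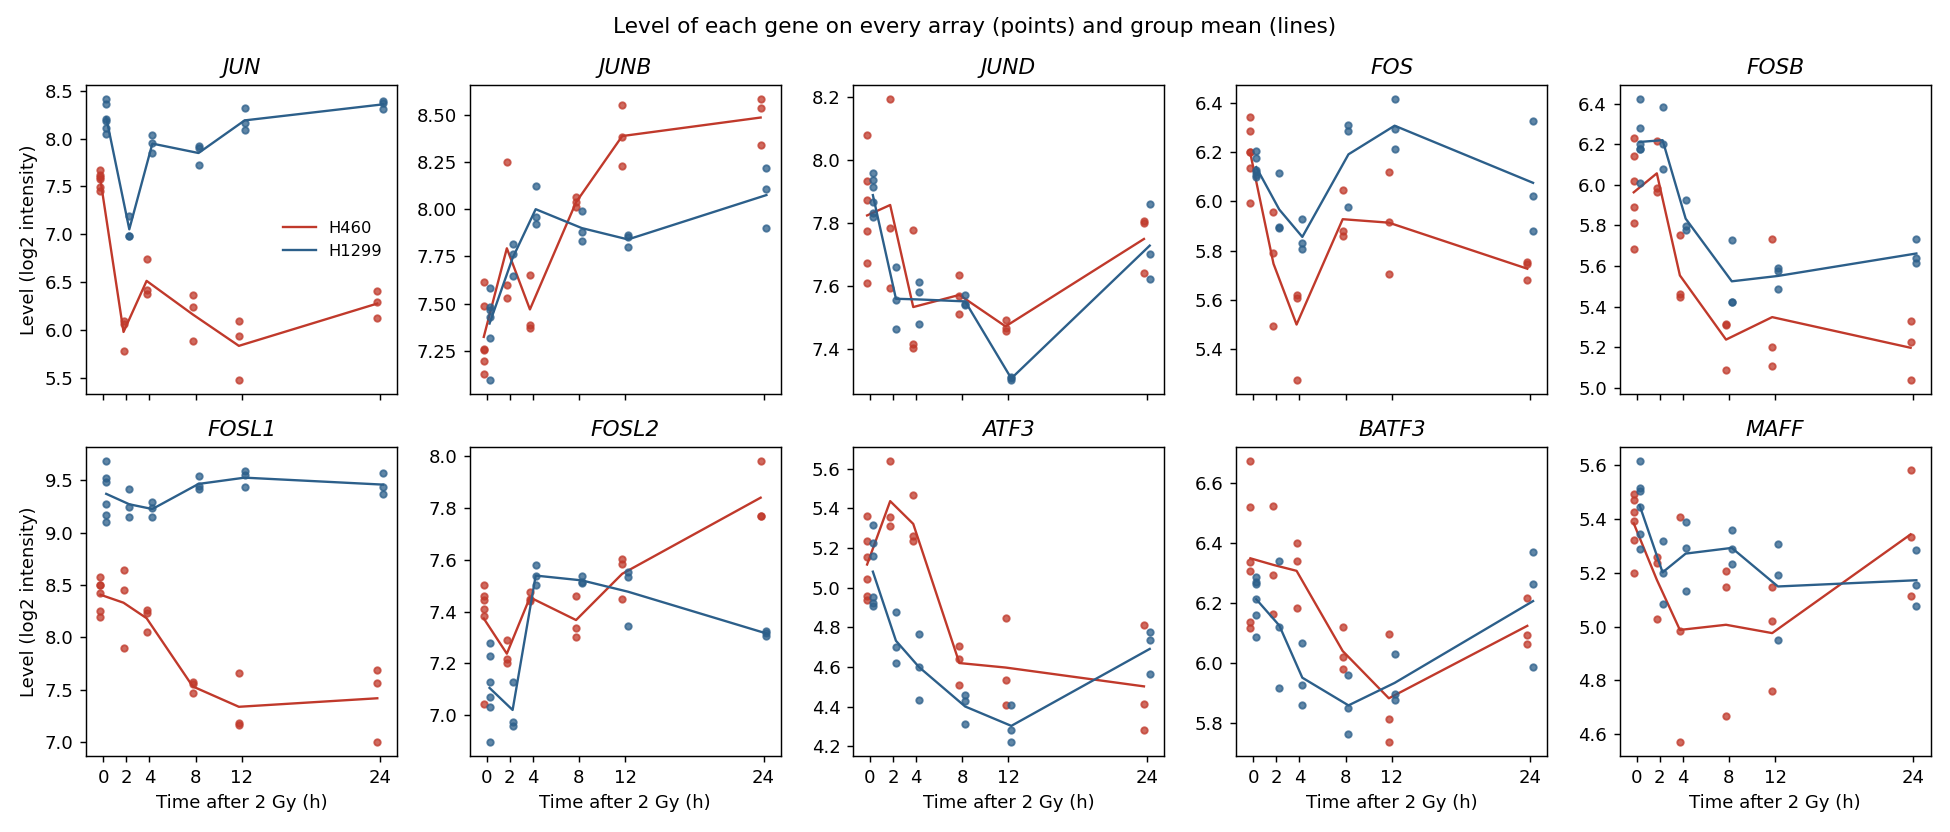
Level (log2 intensity) of each of the 10 genes against hours after 2 Gy, with 1 point per array (6 at 0 h, 3 at each later time) and lines through the group means, red for H460 and blue for H1299, each panel with its own level axis. The H460 points of JUN lie at or below 6.74 after irradiation while those of H1299 return to between 8.09 and 8.39 at 12 and 24 h, and the FOSL1 points of the lines draw apart from 8 h on.

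JUNB, a weaker activator than JUN that can oppose it in the same complexes, moved the other way. In H460 the 0 h arrays ran from 7.13 to 7.62 (median 7.26). The later arrays read 7.60, 7.53 and 8.25 at 2 h, 7.38, 7.65 and 7.37 at 4 h, and 8.04, 8.01 and 8.06 at 8 h. At 12 h they read 8.38, 8.55 and 8.23, and at 24 h 8.34, 8.54 and 8.59. From 8 h on all 9 arrays were above the highest 0 h array, while those at 2 and 4 h overlapped 0 h. JUNB rose by 0.71 ± 0.135 at 8 h (adjusted p = 0.00123), 1.07 at 12 h (adjusted p = 3.94e-06) and 1.16 at 24 h (adjusted p = 5.26e-07). The rise of 0.47 at 2 h (adjusted p = 0.0079) rested on replicate 3, without which it was 0.24 (adjusted p = 0.148), and it was 0.75 after quantile normalization. At 4 h the change was 0.15 (adjusted p = 0.609). With array width as a covariate the change was 0.59 at 2 h (adjusted p = 0.546) and 0.64 at 8 h (adjusted p = 0.123).

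In H1299 JUNB rose at every time. The 0 h arrays ran from 7.09 to 7.58 (median 7.45), and the later arrays read 7.81, 7.76 and 7.65 at 2 h, 7.96, 8.12 and 7.92 at 4 h, and 7.88, 7.83 and 7.99 at 8 h. They read 7.87, 7.80 and 7.85 at 12 h and 8.22, 8.11 and 7.90 at 24 h, so that all 15 lay above 0 h. The changes were 0.35, 0.61, 0.51, 0.45 and 0.68 from 2 to 24 h, each ± 0.0877, with adjusted p between 8.46e-06 and 0.00905. All 5 calls stood in every setting run.

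The promoters of JUN and JUNB are shown because these genes were called in opposite directions. This held in H460 at all times but 4 h, and in H1299 up to 8 h and not later. The windows are the 250 bases before the annotated start, from RefSeq (GRCh38.p14), at chr1:58784048-58784297 on the minus strand for JUN and chr19:12791236-12791485 on the plus strand for JUNB. Capitals mark a match to the CRE-like element TGACNTCA, the kind of site that JUN with ATF2 or ATF3 binds.
JUN: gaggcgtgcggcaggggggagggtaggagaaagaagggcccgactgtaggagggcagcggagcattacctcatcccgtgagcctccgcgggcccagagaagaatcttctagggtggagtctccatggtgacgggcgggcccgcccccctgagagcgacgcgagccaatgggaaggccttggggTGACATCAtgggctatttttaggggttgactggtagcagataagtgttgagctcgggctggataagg
JUNB: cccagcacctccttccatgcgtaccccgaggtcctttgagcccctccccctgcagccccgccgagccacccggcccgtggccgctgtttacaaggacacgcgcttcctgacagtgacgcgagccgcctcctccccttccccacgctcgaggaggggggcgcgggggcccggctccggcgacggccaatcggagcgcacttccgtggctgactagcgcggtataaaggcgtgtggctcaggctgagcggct
The match in JUN, TGACATCA, lies at -67 to -60 from the start, and JUNB has none. Both strands were searched in the 10 promoter windows that RefSeq lists for 8 of the 10 genes, FOSL1 and BATF3 not being among them. The CRE-like element was found in 4 windows, those of JUN, JUND, MAFF and ATF3, and occurs in 6.87% of 35116 promoter windows of the same length. The AP-1 element TGANTCA was found in 0 of the 10 windows (6.57% of all promoter windows) and the core of the serum response element in 0 (1.16%). The matches do not overlap another motif searched, and a match or its absence says only which letters are in the window.

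JUND, the most evenly expressed JUN protein in most tissues, fell in H1299. The 0 h arrays ran from 7.82 to 7.96 (median 7.89), and the later arrays read 7.46, 7.66 and 7.55 at 2 h, 7.58, 7.61 and 7.48 at 4 h, and 7.54, 7.54 and 7.57 at 8 h. At 12 h they read 7.30, 7.31 and 7.31, and at 24 h 7.86, 7.70 and 7.62. Arrays from 2 to 12 h lay below those at 0 h, and those at 24 h overlapped them. The change was -0.33 at 2 h and at 4 h and -0.34 at 8 h, each ± 0.0656, with adjusted p of 0.00163, 0.000844 and 0.000487. It was -0.58 at 12 h (adjusted p = 4.58e-07) and -0.16 at 24 h (adjusted p = 0.128), where it passed after quantile normalization (-0.21, adjusted p = 0.0187) and with array width as a covariate (-0.18, adjusted p = 0.0478). In H460, where 0 h arrays ran from 7.61 to 8.08 (median 7.82), JUND was called at 12 h alone, where it fell by 0.35 ± 0.122 (arrays 7.49, 7.47 and 7.46, adjusted p = 0.0282). That call was lost without any of 5 arrays (0 h replicates 1 and 5 and each 12 h array), with adjusted p between 0.0535 and 0.0853, and with array width as a covariate (-0.27, adjusted p = 0.475).

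Of the FOS proteins, which bind DNA only with a partner, FOS fell modestly in H460 and was not called in H1299. In H460 the 0 h arrays ran from 5.995 to 6.34 (median 6.20). The later arrays read 5.50, 5.79 and 5.96 at 2 h, 5.27, 5.61 and 5.62 at 4 h, and 6.05, 5.86 and 5.88 at 8 h. At 12 h they read 5.92, 6.12 and 5.71, and at 24 h 5.75, 5.75 and 5.68. Arrays at 2, 4 and 24 h lay below 0 h and those at 8 and 12 h overlapped it. The change was -0.45 ± 0.122 at 2 h (adjusted p = 0.00593), -0.69 at 4 h (1.62-fold lower, adjusted p = 0.00236) and -0.47 at 24 h (adjusted p = 0.00598). It was -0.27 at 8 h (adjusted p = 0.126) and -0.28 at 12 h (adjusted p = 0.0784). The 2 h call was lost without 2 h replicate 1 (-0.32, adjusted p = 0.0532), and with array width as a covariate the changes at 2 and 24 h were -0.43 (adjusted p = 0.63) and -0.48 (adjusted p = 0.0789).

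In H1299 the FOS arrays at 0 h ran from 6.10 to 6.21 (median 6.12), and the group means after irradiation lay between 5.86 at 4 h and 6.31 at 12 h. The changes were -0.17, -0.28, 0.05, 0.17 and -0.06 from 2 to 24 h, each ± 0.0984. The lowest adjusted p was 0.0506, at 4 h, where the arrays read 5.83, 5.93 and 5.81 and lay below 0 h. It was under 0.05 without any of 6 arrays (0 h replicate 2, 2 h replicates 1 and 3, 8 h replicate 1, 24 h replicates 2 and 3), at 0.0327 to 0.0488. The 4 h adjusted p was also under 0.05 with array width as a covariate (0.0368) and with dim genes filtered out (0.0321). The first time measured, 2 h, is later than the peak that immediate-early transcripts are known for, so such a peak was not measured here.

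FOSB, whose splice form without the activation domain is known from the brain, fell in both lines from 8 h on. In H460 the 0 h arrays ran from 5.68 to 6.23 (median 5.95), and the arrays read 5.31, 5.09 and 5.32 at 8 h, 5.73, 5.11 and 5.20 at 12 h, and 5.33, 5.04 and 5.23 at 24 h. In H1299 the 0 h arrays ran from 6.01 to 6.42 (median 6.19), and the arrays read 5.42, 5.73 and 5.42 at 8 h, 5.59, 5.49 and 5.58 at 12 h, and 5.73, 5.64 and 5.61 at 24 h. Only 1 of these 18 arrays, H460 12 h replicate 1, overlapped the 0 h arrays of its line. The change in H460 was -0.73, -0.61 and -0.77 at 8, 12 and 24 h, each ± 0.142 (adjusted p = 0.00163, 0.00229 and 0.000251). In H1299 it was -0.69, -0.66 and -0.55, each ± 0.0989 (adjusted p = 1.76e-05, 1.84e-05 and 0.000486), after -0.38 at 4 h (adjusted p = 0.00893, and 0.056 without 4 h replicate 2). With array width as a covariate the H460 changes were -0.54, -0.41 and -0.58 (adjusted p = 0.252, 0.291 and 0.0557). At 2 h FOSB changed by 0.09 in H460 and 0.01 in H1299, with adjusted p of 0.622 and 0.973.

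FOSL1 encodes FRA1, a FOS protein without a strong activation domain that is known for its high levels in invasive carcinoma cells. It fell in H460 from 8 h on. There the 0 h arrays ran from 8.19 to 8.57 (median 8.46), and the arrays read 8.45, 7.90 and 8.64 at 2 h and 8.06, 8.24 and 8.26 at 4 h, overlapping 0 h. They read 7.55, 7.57 and 7.46 at 8 h, 7.18, 7.17 and 7.66 at 12 h, and 6.999, 7.56 and 7.69 at 24 h. All 9 late arrays lay below the lowest 0 h array. The change was -0.08 at 2 h and -0.22 at 4 h (adjusted p = 0.712 and 0.457), and then -0.88 ± 0.151 at 8 h (1.84-fold lower, adjusted p = 0.00052). It was -1.07 at 12 h (2.10-fold lower, adjusted p = 1.69e-05) and -0.99 at 24 h (1.98-fold lower, adjusted p = 2.52e-05). With array width as a covariate the 8 h change was -0.71 (adjusted p = 0.126), and the calls at 12 and 24 h stood in every setting run.

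In H1299 FOSL1 stayed close to its 0 h level, which ran from 9.10 to 9.69 (median 9.38). The 15 later arrays lay between 9.15 and 9.59, within that range. The changes were -0.10, -0.14, 0.09, 0.15 and 0.09, each ± 0.0952, with adjusted p from 0.224 to 0.664. The 95% interval at 12 h was -0.04 to 0.35. With array width as a covariate the changes at 8 and 12 h were 0.29 (adjusted p = 0.0329) and 0.36 (adjusted p = 0.00781), and without 0 h replicate 2, an array of narrow spread, the 12 h change was 0.22 (adjusted p = 0.0487).

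FOSL2, which encodes FRA2, rose in both lines at different times. In H460 the 0 h arrays ran from 7.04 to 7.50 (median 7.43) and the 24 h arrays read 7.77, 7.98 and 7.77, above all of them. In H1299 the 0 h arrays ran from 6.90 to 7.28 (median 7.10), and the arrays read 7.50, 7.54 and 7.58 at 4 h, 7.54, 7.51 and 7.51 at 8 h, and 7.35, 7.55 and 7.53 at 12 h. These 9 arrays also lay above 0 h. The rise in H460 was 0.47 ± 0.101 at 24 h (adjusted p = 0.00119, and 0.128 with array width as a covariate). FOSL2 rose in H1299 by 0.43 (4 h), 0.42 (8 h) and 0.37 (12 h), each ± 0.0773 (adjusted p = 0.000296, 0.00031 and 0.000732). At 24 h the H1299 arrays read 7.32, 7.32 and 7.31, still above 0 h, with a change of 0.21 (adjusted p = 0.0829, and 0.0357 without 0 h replicate 5).

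ATF3 is a stress-induced factor that represses many promoters as a pair with itself and acts with JUN on others. In H460 it was low from 8 h on, and in H1299 from 2 h on. In H460 the 0 h arrays ran from 4.94 to 5.36 (median 5.10), and the arrays read 5.31, 5.36 and 5.64 at 2 h and 5.24, 5.26 and 5.47 at 4 h. They read 4.64, 4.71 and 4.51 at 8 h, 4.54, 4.41 and 4.85 at 12 h, and 4.41, 4.81 and 4.28 at 24 h. Early arrays overlapped 0 h at its upper end, and the 9 later ones lay below it. The change was 0.32 ± 0.135 at 2 h (adjusted p = 0.0601) and 0.20 at 4 h (adjusted p = 0.445), and the 2 h value passed after centring each array on its median (0.36, adjusted p = 0.0411) and without 0 h replicate 6 or 24 h replicate 2 (adjusted p = 0.0351 and 0.0476). ATF3 fell by 0.50 at 8 h (adjusted p = 0.0151), 0.52 at 12 h (adjusted p = 0.00533) and 0.61 at 24 h (1.53-fold lower, adjusted p = 0.00139). The 8 h call was lost without 8 h replicate 1 or 3 (adjusted p = 0.0583 and 0.0776) and the 12 h call without 12 h replicate 2 (adjusted p = 0.0524). After quantile normalization these changes were -0.34 (adjusted p = 0.151) and -0.32 (adjusted p = 0.136), and with array width as a covariate -0.60 (adjusted p = 0.15) and -0.64 (adjusted p = 0.0649).

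In H1299 ATF3 was lower at every time. The 0 h arrays ran from 4.91 to 5.32 (median 5.06), and the arrays read 4.70, 4.62 and 4.88 at 2 h, 4.60, 4.77 and 4.43 at 4 h, and 4.43, 4.46 and 4.32 at 8 h. At 12 h they read 4.22, 4.28 and 4.41, and at 24 h 4.77, 4.73 and 4.57. All 15 lay below 0 h, with the lowest mean at 12 h. The changes were -0.35, -0.48, -0.68, -0.78 and -0.39, each ± 0.112, with adjusted p of 0.0388, 0.00366, 8.62e-05, 1.15e-05 and 0.0228. The 2 h call was lost without any of 5 arrays (0 h replicates 1 and 6 and each 2 h array, adjusted p 0.0516 to 0.186), and the 24 h call without 24 h replicate 2 or 3 (adjusted p = 0.0552 and 0.148). Median centring and the replicate block also ended the 2 h call (adjusted p = 0.0793 and 0.0608). With 0 h replicates 4 to 6 alone the calls at 2 and 24 h were lost (adjusted p = 0.154 and 0.119). The levels of ATF3 and MAFF were low enough that a filter on dim genes, which kept 12269 genes and 8 of the 10 described here, left both out, and no detection call says whether they stood above background.

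The promoter at the upstream start of ATF3 is shown because it holds letters that match the CRE-like element and the amino acid response element. Whether either match acts in a stress response of ATF3 was not tested. The window lies at chr1:212565157-212565406 on the plus strand (RefSeq, GRCh38.p14), and capitals mark the matches.
ATF3: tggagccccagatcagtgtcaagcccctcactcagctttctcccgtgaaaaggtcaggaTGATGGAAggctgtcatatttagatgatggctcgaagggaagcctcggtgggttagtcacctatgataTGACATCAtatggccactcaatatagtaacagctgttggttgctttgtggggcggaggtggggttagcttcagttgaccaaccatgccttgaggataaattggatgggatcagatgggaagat
The first match, TGATGGAA at -191 to -184, fits the amino acid response element TGATGNAA, which occurs in 3.14% of all promoter windows and in 1 of the 10 windows of these genes. The other, TGACATCA at -123 to -116, is the CRE-like element, with the same letters as in JUN. The second start of ATF3 held neither.

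BATF3, which has no activation domain and is known for its role in dendritic cells, and MAFF, a small MAF protein that lacks one too, were called at 12 h in both lines and at few other times. BATF3 fell by 0.47 ± 0.125 at 12 h in H460 (arrays 5.74, 5.82 and 6.10, against 6.12 to 6.67 at 0 h, adjusted p = 0.00669). In H1299 it fell by 0.35 ± 0.0995 at 8 h (arrays 5.85, 5.96 and 5.77, against 6.09 to 6.29 at 0 h, adjusted p = 0.0112) and by 0.28 at 12 h (arrays 5.90, 6.03 and 5.88, adjusted p = 0.0365). The groups did not overlap in these 3 comparisons, but each call depended on single arrays. The H460 call was lost without 12 h replicate 1 (adjusted p = 0.0511), the H1299 8 h call without 8 h replicate 3 (adjusted p = 0.079), and the H1299 12 h call without any of 6 arrays (0 h replicates 1, 2 and 5 and each 12 h array, adjusted p 0.0502 to 0.119). With array width as a covariate the BATF3 changes were -0.21 (adjusted p = 0.578), -0.27 (adjusted p = 0.11) and -0.19 (adjusted p = 0.284).

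MAFF fell at 12 h in both lines, by 0.41 ± 0.155 in H460 (arrays 5.15, 5.02 and 4.76, against 5.20 to 5.49 at 0 h, adjusted p = 0.0442) and by 0.30 ± 0.103 in H1299 (arrays 5.19, 4.95 and 5.31, against 5.29 to 5.62, adjusted p = 0.0296). The H1299 groups overlapped. Neither call passed after quantile normalization (-0.23, adjusted p = 0.32, and -0.19, adjusted p = 0.158) or with array width as a covariate (adjusted p = 0.298 and 0.125). The H460 call was lost without any of 8 arrays (0 h replicates 1, 2, 3, 5 and 6, 12 h replicates 2 and 3, 24 h replicate 1), with adjusted p from 0.0505 to 0.219. The H1299 call was lost without 0 h replicate 6 or 12 h replicate 1 or 2, with adjusted p from 0.0544 to 0.235.

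The next question was whether the response differed between the radiosensitive and the radioresistant line. The time courses differed for 4 of the 10 genes, against 16.7% of all genes: FOSL1 (adjusted p = 3.59e-07), JUN (adjusted p = 0.00126), FOSL2 (adjusted p = 0.00657) and JUNB (adjusted p = 0.039). At single times 14 of 50 gene and time pairs differed, against 13.7% of all genes. By time the counts were 3 of 10 at 2 h (28.6% of all genes), 2 at 4 h (8.54%), 3 at 8 h (10.1%), 3 at 12 h (8.68%) and 3 at 24 h (12.4%). JUN fell further in H460 at every time, with an H460 change minus the H1299 change of -0.42 at 2 h, -0.78 at 4 h, -1.03 at 8 h, -1.70 at 12 h and -1.43 at 24 h, each ± 0.157. The adjusted p values were 0.0404, 0.00149, 2.59e-05, 4.94e-10 and 1.21e-08. The 2 h difference was -0.24 with array width as a covariate (adjusted p = 0.49) and was lost without any of 11 arrays, with adjusted p from 0.0507 to 0.145. It was also lost with the replicate block (adjusted p = 0.0501) and with 0 h replicates 1 to 3 or 4 to 6 alone (adjusted p = 0.0831 and 0.127).

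FOSL1 fell further in H460 at 8, 12 and 24 h, by differences of -0.97, -1.23 and -1.08, each ± 0.187 (adjusted p = 0.000661, 1.93e-05 and 7.34e-05). These and the JUN differences from 4 h on stood in every setting run. JUNB rose further in H460 at 12 h (0.62 ± 0.165, adjusted p = 0.0128) and at 24 h (0.48, adjusted p = 0.0468). The 12 h difference was lost without H460 12 h replicate 2 (0.54, adjusted p = 0.0634) and with 0 h replicates 1 to 3 alone (0.50, adjusted p = 0.116). At 4 h the JUNB difference was -0.46 (adjusted p = 0.0733), and it passed without H460 0 h replicate 5 or H460 2 h replicate 3 (adjusted p = 0.0462 and 0.0237). The 24 h difference was lost in 25 of the 42 fits that left out 1 array, with adjusted p up to 0.15. With array width as a covariate the 24 h difference was 0.40 (adjusted p = 0.123). The JUNB time course difference was lost in 14 of the 42, with adjusted p up to 0.0812, and was not called after quantile normalization (adjusted p = 0.237). ATF3 was higher in H460 relative to 0 h at 2 h (0.67 ± 0.171, adjusted p = 0.00328) and 4 h (0.69, adjusted p = 0.00867, and 0.118 with 0 h replicates 4 to 6 alone). From 8 h on its differences were 0.18, 0.26 and -0.22 with adjusted p of 0.6, 0.409 and 0.419.

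The 2 remaining differences were small. FOSL2 at 8 h differed by -0.42 ± 0.121 (adjusted p = 0.0194), and the call was lost without H460 8 h replicate 1 or 2 or H1299 8 h replicate 1 (adjusted p 0.0504 to 0.0669). JUND at 2 h differed by 0.36 ± 0.137 (adjusted p = 0.0431), but by 0.19 (adjusted p = 0.313) without H460 2 h replicate 3, and was lost without any of 9 arrays in all. With array width as a covariate the JUND difference was 0.36 but was not called (adjusted p = 0.194). For FOS the differences were -0.27, -0.41, -0.32, -0.45 and -0.40, none of which passed (adjusted p 0.0589 to 0.205). The FOS difference at 12 h passed without any of 6 arrays, with adjusted p from 0.0339 to 0.0498. It also passed with array width as a covariate (adjusted p = 0.0442) and with the filter on dim genes (adjusted p = 0.0398). After quantile normalization the FOS difference at 2 h passed (-0.41, adjusted p = 0.0428). No difference was called for FOSB, BATF3 or MAFF. For FOSB the 95% intervals ran from -0.39 to 0.31 at 8 h, -0.30 to 0.39 at 12 h and -0.56 to 0.13 at 24 h.

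**Figure D3:**
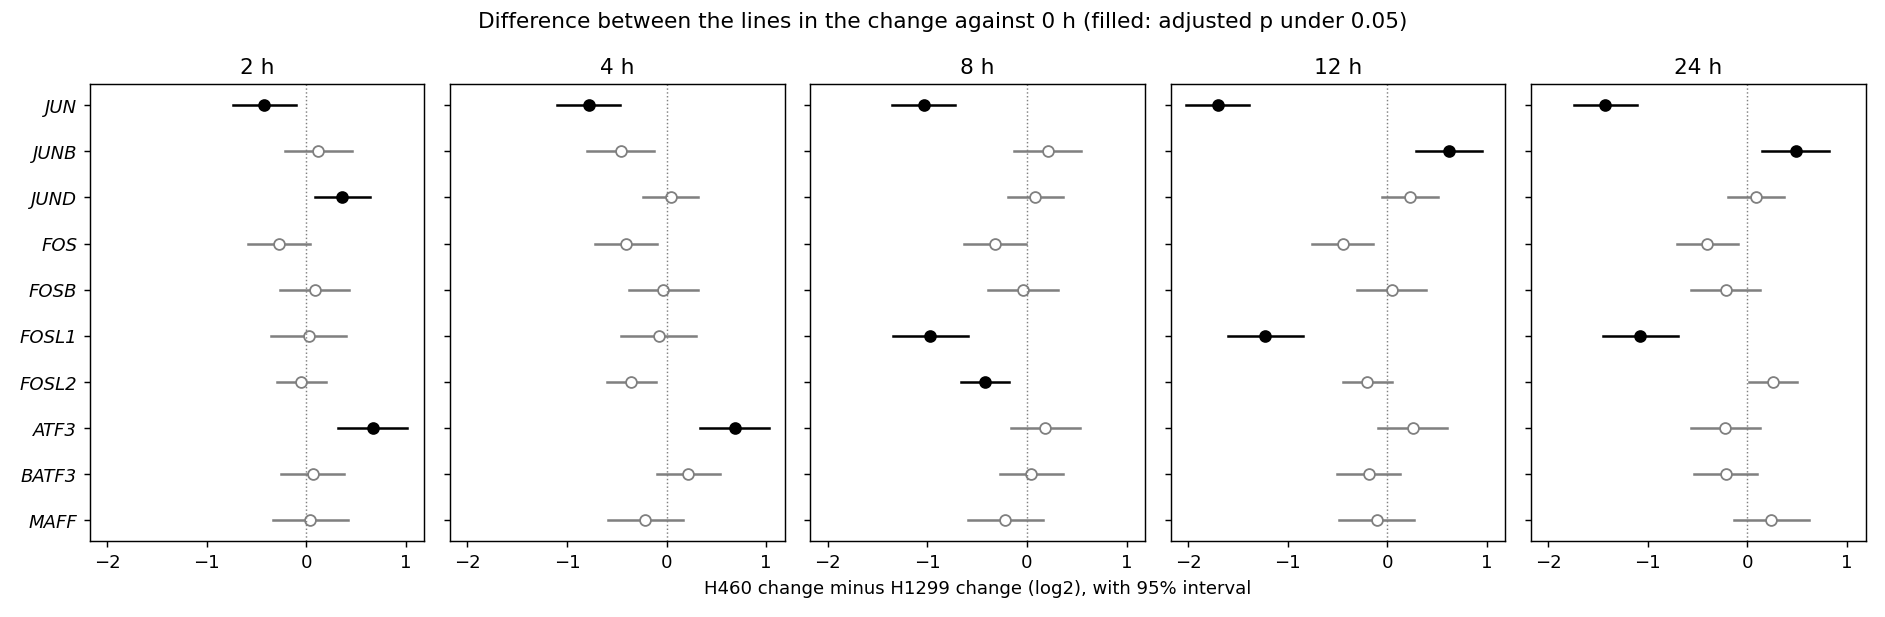
H460 change minus H1299 change (log2) for each gene at 2, 4, 8, 12 and 24 h, with 95% intervals of the model and filled points where the adjusted p was under 0.05. JUN moves left to -1.70 at 12 h, FOSL1 leaves 0 at 8 h (-0.97), and ATF3 lies to the right at 2 and 4 h (0.67 and 0.69).

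The lines also differed before irradiation in 3 of the 10 genes, against 55.1% of all genes. JUN was lower in H460 by 0.65 ± 0.0796 (7.46 to 7.67, against 8.05 to 8.41 in H1299, adjusted p = 6.25e-07), and FOSL1 was lower by 0.96 ± 0.10 (8.19 to 8.57, against 9.10 to 9.69, adjusted p = 6.68e-08). Neither overlapped between the lines. FOSL2 was higher in H460 by 0.27 ± 0.0932 (adjusted p = 0.0201), with overlapping arrays, and the call was lost without H1299 0 h replicate 4 (0.23, adjusted p = 0.0574) or with 0 h replicates 1 to 3 or 4 to 6 alone (adjusted p = 0.236 and 0.0807). At 12 h the JUN means were thus 5.83 in H460 and 8.19 in H1299, and the FOSL1 means 7.34 and 9.53.

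At 24 h against 12 h, 0 of 10 members were called in H460 by limma (1.95% of all genes). JUN changed by 0.44 ± 0.154 (adjusted p = 0.151) and FOSL2 by 0.29 ± 0.116 (adjusted p = 0.226), and these 2 alone had an unadjusted p under 0.05. In H1299 1 of 10 was called (8.35% of all genes): JUND, at 7.86, 7.70 and 7.62 at 24 h against 7.30, 7.31 and 7.31 at 12 h, rose by 0.42 ± 0.0758 (adjusted p = 0.00109). Without 24 h replicate 3, ATF3 (0.45, adjusted p = 0.0469) and BATF3 (0.38, adjusted p = 0.0437) were called as well, and without 0 h replicate 2 ATF3 was (adjusted p = 0.0401).

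How the members moved relative to one another is described by correlations over the 12 group means, each line centred on its own mean, with no test since the means share arrays, lines and array width. Of the 45 pairs 28 had r above 0, 8 were above 0.6 and 6 below -0.6. FOSB with ATF3 (r = 0.84) and ATF3 with BATF3 (r = 0.83), which lie near each other on chromosome 1, were the highest. JUNB ran against FOSL1 (r = -0.78), ATF3 (r = -0.76) and FOSB (r = -0.70), and JUN with JUNB had r = -0.48. Over the same 12 means ATF3 had r = -0.86 and FOSB r = -0.84 with array width, while JUN had r = 0.04. Among all 18404 genes 39.5% had an absolute r with array width above 0.8, and 2 of the 10 members did. The part of array width in these correlations was not tested.

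**Figure D4:**
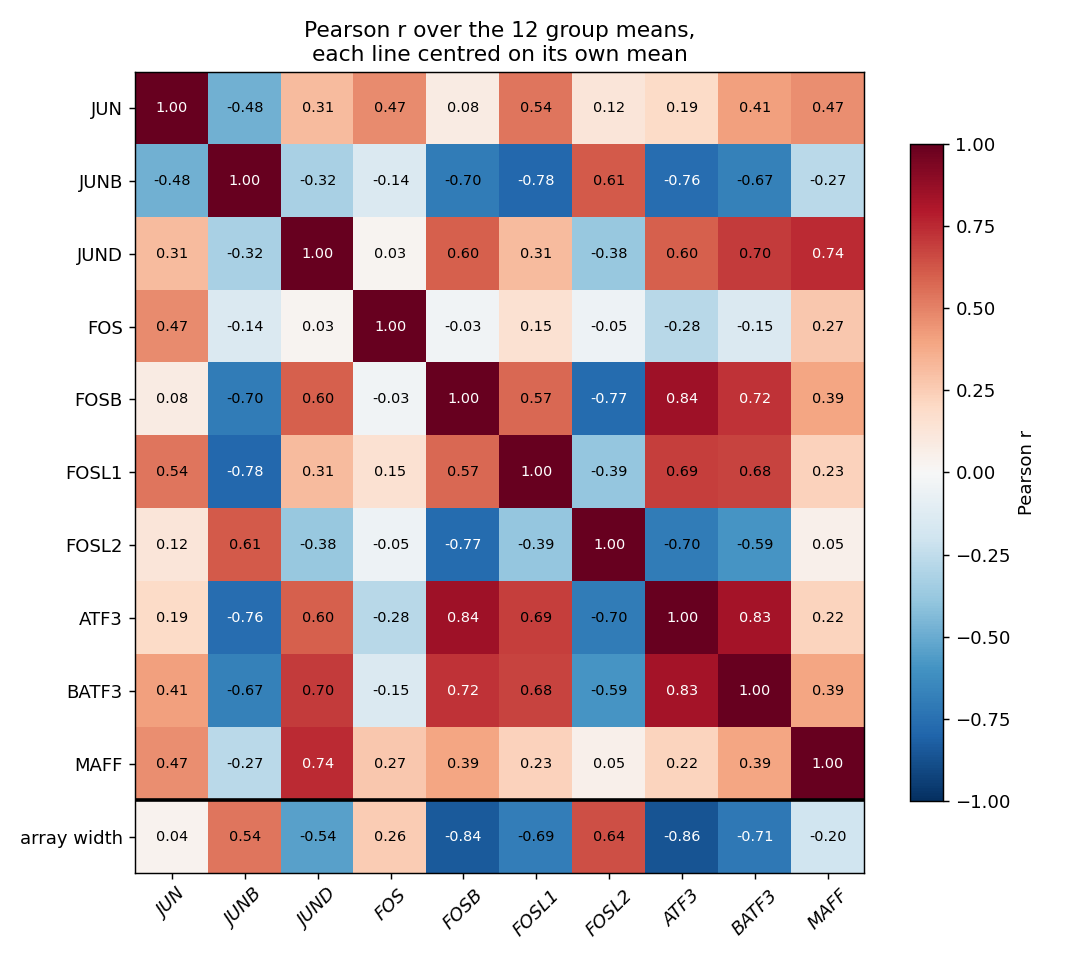
Pearson r between each pair of the 10 genes over the 12 group means, each line centred on its own mean, with the correlation of each gene with array width in the bottom row. FOSB, ATF3 and BATF3 form a block of positive values, JUNB is negative with them, and JUN is nearly uncorrelated with array width (0.04).

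By the same measure, the genes most like JUN over the 12 means were NLE1 (r = 0.89), YDJC (r = 0.88) and SNORD83A (r = 0.88). Those most like FOS were CDC42 (r = 0.82), OSR2 (r = 0.81) and PPP1R13L (r = 0.80). FOSL1 was closest to POLR1G (r = 0.97), ELF4 (r = 0.95) and OR5L1 (r = 0.94), and ATF3 to CTLA4, VAX2 and TSSK4 (r = 0.97 each). At 12 h in H460 NLE1 changed by -0.36 and POLR1G by -0.46, while JUN changed by -1.73 and FOSL1 by -1.07. The genes like ATF3 had r between -0.91 and -0.84 with array width, and 3 of these 12 genes, OR5L1, CTLA4 and TSSK4, never had a group mean above 4.54.

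Other genes of the pathway were counted in lists that were chosen with earlier results of these data known, so the counts only describe. Of 11 further zipper partners 9 were measured. At 12 h 1 rose and 2 fell in H460 (against 33.5% of all genes called) and 1 rose and 1 fell in H1299 (against 29.7%). ATF2, which pairs with JUN on CRE-like elements, rose at 12 h in both lines, by 0.39 ± 0.0978 in H460 (adjusted p = 0.0044) and 0.64 ± 0.0596 in H1299 (adjusted p = 4.12e-08). At 2 h it fell by 0.40 in H460 (adjusted p = 0.00287), and its change in H1299 was 0.14 (adjusted p = 0.131). At 12 h BATF2 fell by 0.50 in H460 (adjusted p = 0.0272) and 0.54 in H1299 (adjusted p = 0.00354).

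Of 30 other immediate-early genes 28 were measured, and at 12 h 7 rose and 10 fell in each line, with medians of 0.03 in H460 and -0.09 in H1299, against -0.04 and -0.06 for all genes. The share of all genes called at 12 h was 33.5% in H460 and 29.7% in H1299. At 24 h 9 rose and 4 fell in H460 (against 28.7% of all genes) and 8 rose and 6 fell in H1299 (against 11.7%). In H460 DUSP1, a phosphatase that switches off JNK and p38, changed by -0.08 at 2 h (adjusted p = 0.478) and rose by 0.62 at 4 h, 1.10 at 8 h, 1.32 at 12 h and 1.97 at 24 h, each ± 0.0906 (adjusted p at 24 h 5.43e-14). EGR1, a zinc finger factor that is usually induced together with FOS, fell by 1.09 ± 0.13 at 12 h in H460 (adjusted p = 1.79e-06), and the orphan receptor NR4A1 rose by 1.02 ± 0.118 at 24 h (adjusted p = 5.08e-07). In H1299 the matrix protein gene CCN1 fell at every time, by 0.79 to 0.98 (± 0.0673, adjusted p at most 2.25e-08), and IER2 rose by 0.87 ± 0.0637 at 24 h (adjusted p = 1.04e-09). Members of the list were thus called in both directions in each line.

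Of 25 genes of the MAP kinase cascade and its ternary complex factors, which relay signals to JUN and FOS, 22 were measured. In H460 0 rose and 8 fell at 2 h (against 40.4% of all genes called), 0 were called at 4 h (against 2.92%), and at 12 h 3 rose and 1 fell (against 33.5%). In H1299 6 rose and 7 fell at 12 h (against 29.7%). The medians at 12 h were 0.02 in H460 and -0.06 in H1299, against -0.04 and -0.06 for all genes. MAP2K6, a kinase that activates p38, rose by 1.02 ± 0.115 at 24 h in H460 (adjusted p = 3.63e-07). MAP2K3, which does so too, fell by 0.56 ± 0.0685 at 12 h in H1299 (adjusted p = 1.43e-06), and MAP3K7 (TAK1) rose by 0.38 and 0.41 in H460 and H1299 at 12 h (adjusted p = 0.00191 and 3.96e-06).

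Of 25 known AP-1 targets 22 were measured. At 12 h 4 rose and 7 fell in H460 (against 33.5% of all genes called) and 5 rose and 5 fell in H1299 (against 29.7%). At 24 h 5 rose and 4 fell in H460 (against 28.7%) and 7 rose and 1 fell in H1299 (against 11.7%). MMP1, which encodes a collagenase, fell at 12 h by 1.35 ± 0.139 in H460 (adjusted p = 2.13e-07) and by 1.01 ± 0.115 in H1299 (adjusted p = 4.87e-07). At 24 h it fell by 1.76 in H460 (adjusted p = 1.2e-09), and its change in H1299 was -0.05 (adjusted p = 0.87). TIMP1, which encodes an inhibitor of matrix metalloproteinases, rose by 0.42 ± 0.103 at 12 h in H460 (adjusted p = 0.00369). SPP1, which encodes osteopontin, rose at 24 h by 0.58 ± 0.0891 in H460 (adjusted p = 2.63e-05) and by 1.23 ± 0.0986 in H1299 (adjusted p = 5.84e-09). PLAU, the urokinase gene, fell by 0.38 ± 0.0644 at 2 h in H1299 (adjusted p = 0.000451) and rose by 1.22 at 24 h (adjusted p = 2.1e-12). The medians at 24 h were 0.02 in H460 and 0.06 in H1299, against -0.05 and 0.00 for all genes.

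All 15 genes of the ATF4 and CHOP branch, through which ATF3 is known to be induced, were measured. At 24 h 8 rose and 2 fell in H460 (against 28.7% of all genes called) and 11 rose and 1 fell in H1299 (against 11.7%). The list's medians were 0.34 in H460 and 0.53 in H1299, against -0.05 and 0.00 for all genes, while ATF3 was lower than at 0 h in both lines. In H1299 12 of the 15 were higher at 24 h than at 12 h and 0 lower, against 8.35% of all genes called. CEBPB, a zipper factor of the C/EBP family, rose by 0.80 ± 0.0993 at 24 h in H460 (adjusted p = 1.39e-06), and PPP1R15A, the phosphatase subunit that ends the block on translation, fell by 0.90 ± 0.119 at 12 h (adjusted p = 7.53e-06). The lipoprotein receptor gene VLDLR rose at 24 h by 0.80 ± 0.121 in H460 (adjusted p = 2.18e-05) and 0.60 ± 0.0696 in H1299 (adjusted p = 2.19e-06).

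All 8 genes of the ubiquitin machinery that turns over the JUN protein were measured, and these arrays do not measure that protein. At 12 h 5 rose and 0 fell in H460 (against 33.5% of all genes called) and 3 rose and 0 fell in H1299 (against 29.7%). The medians were 0.36 in H460 and 0.19 in H1299, against -0.04 and -0.06 for all genes. FBXW7, the substrate receptor that marks phosphorylated JUN for degradation, rose by 0.93 ± 0.156 at 12 h in H460 (adjusted p = 0.00013) and by 0.44 ± 0.112 in H1299 (adjusted p = 0.00478). USP28, which opposes FBXW7, rose by 0.52 ± 0.12 in H460 (adjusted p = 0.00229) and 0.50 ± 0.0811 in H1299 (adjusted p = 4.75e-05). At 2 h in H460, when the arrays were narrow, 0 rose and 6 fell (against 40.4% of all genes called), and the part of array width in that count was not tested.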

How the data were processed

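Labelled target from 100 ng of total RNA was hybridised to 1-colour Affymetrix arrays, per the labels' protocols. The authors deposited 1 table of log2 values, from 1.45 to 14.2, for 42 arrays; the summary and normalization method, the software and the genome build are not given in the sources used here. The table gives no detection call, slide or scan time, so these could not be examined. Of 32321 rows 19158 had 1 gene symbol, 1388 had several and 11775 were in no probe table. Symbols were updated through gene IDs for 19128 rows, and where a gene had several rows the brightest on average was used, which gave 18404 genes. Array medians over these genes lay between 5.97 and 6.18, and 0 pairs of arrays were identical.

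The deposited values were used unchanged. Changes, differences between lines and 0 h levels were fitted with 1 mean per group by lmFit and eBayes (trend) of limma 3.58.1, under R 4.3.3, over the 21 arrays of a line, all 42 arrays, or the 12 arrays at 0 h. Time courses were moderated F-tests of hours and hours squared. All tests are two-sided, with Benjamini-Hochberg adjustment over all genes and a threshold of 0.05. Precision is limited by the number of arrays. The fits were also run on simulated data with independent noise of the same size on every array. That run did not include the differences in array width and says nothing about their effect.

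The members, the 6 lists, the rule for naming genes and the tests were chosen with earlier results of these data known. By the rule all 10 members are named, with the 3 genes most like each of JUN, FOS, FOSL1 and ATF3, up to 4 genes of a list with the smallest time course p in a line, and CDKN1A as a check. Promoters are RefSeq windows of 250 bases before a start (GRCh38.p14). Alternatives were quantile normalization, median centring, a filter on dim genes, array width as a covariate, means over the rows of a gene, a replicate block, 1 mean per time point, either set of 0 h replicates (1 to 3, 4 to 6), and each array left out in turn.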

Additional observations from a re-analysis of the deposited data

Results flagged for a closer look

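Among the 20 groups of 6 arrays at 0 h, 1 held an array far from the others: FOSL2 read 7.04 in H460 replicate 2, against 7.38 to 7.50 in the other 5 arrays. About 1 in 20 such groups is expected to hold one by chance.

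The H460 change differed from the H1299 change in 14 of 50 gene and time pairs by limma's interaction test, against 13.7% for all genes. JUN differed by -0.42 (2 h), -0.78 (4 h), -1.03 (8 h), -1.70 (12 h) and -1.43 (24 h). FOSL1 differed by -0.97 (8 h), -1.23 (12 h) and -1.08 (24 h). For ATF3 it was 0.67 at 2 h and 0.69 at 4 h. For JUNB it was 0.62 at 12 h and 0.48 at 24 h. JUND differed by 0.36 at 2 h and FOSL2 by -0.42 at 8 h. Of the 14, 8 stood in every setting run for them: JUN from 4 h on, FOSL1 at 8, 12 and 24 h, and ATF3 at 2 h.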

How the results depend on the processing

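Of the 25 calls against 0 h in H460, 18 were kept whichever array was left out, and 10 were kept with array width as a covariate, the setting that moved most: it gave 10 calls in place of 25. Of the 27 calls in H1299, 20 were kept whichever array was left out and 24 with array width. Of the 14 differences between the lines 9 were kept whichever array was left out and 11 with array width. The count of differences was 9 with 0 h replicates 1 to 3 alone. Between 12 and 24 h in H1299, 2 genes in place of 1 were called with array width as a covariate. No result changed direction in a called value under any setting (0 cases). The cause of these moves was not tested.

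When each array was left out in turn, the counts ran from 7 to 9 for the H460 time course, 22 to 26 for the H460 changes, 0 to 0 for H460 24 h against 12 h, 6 to 7 for the H1299 time course, 25 to 28 for the H1299 changes, 1 to 3 for H1299 24 h against 12 h (3 without 24 h replicate 3), 3 to 5 for the difference of time courses, 11 to 15 for the difference of changes and 2 to 4 for the lines at 0 h. Leaving out the arrays of narrow spread (the 3 H460 arrays at 2 h and H1299 0 h replicate 2), chosen after seeing the data, gave 9 for the H460 time course, 22 for the H460 changes, 5 for the difference of time courses and 14 for the difference of changes. No change at 2 h was counted in this setting, so its 22 and 14 cannot be set against the counts over all 5 times. The differences of FOSL2 and JUNB at 4 h and of FOS at 12 h were called here (adjusted p = 0.047, 0.0393 and 0.0398) but not with all arrays.

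The replicate numbers do not pair the arrays: the deviations of same-numbered arrays from their group means had median r between -0.06 and 0.00. With the replicate block the counts were 7 and 6 for the H460 and H1299 time courses, 21 and 23 for the changes against 0 h, 0 and 1 for 24 h against 12 h, 3 and 11 for the differences between the lines, and 4 at 0 h. The precision rests on 3 arrays per time point, without detection calls to say which low levels stood above background.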
